A study of Mus musculus with 12 samples.

Results

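The regions described here are the 489 FLAG-Zscan4 regions on chromosome 1 of the mouse, of 4973 regions listed over the whole genome (9.83%). They were chosen by the chromosome on which they lie, and chromosome 1 was singled out because its rate of regions was already known to be high. That rate and all that follows from it are therefore given as a description, with no test. The regions come from a single chromatin immunoprecipitation with anti-FLAG antibody from J1 cells, a mouse embryonic stem (ES) cell line, that carried the coding sequence of Zscan4c behind a FLAG tag in a CMV-promoter plasmid. The cells had received 1000 ng of plasmid and, from 24 h on, 500 ug/ml of G418 for 10 days, after which monoclonal cells were picked. The labels do not say how many clones entered the library. Of 12 labelled samples, the region list belongs to 1, and the other 11 (an input of the same cells and the histone mark and input libraries of overexpressing and wild-type cells) were not analysed here. No replicate exists, so every interval below covers counting error only, with regions or genes taken as independent, and no comparison of cells with cells was possible. Depth was unknown.

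Zscan4 proteins carry a SCAN domain and zinc fingers that bind DNA. They appear in the mouse embryo at the onset of its own transcription and in a small, passing fraction of cultured ES cells, and they are known for a role in keeping telomeres long. The plasmid placed the tagged protein in cells outside that natural window. DNA rich in CA and TG dinucleotides, and the letters TGCACAC, have been described as places that these zinc fingers prefer.

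Promoters were rarely the place of a chromosome 1 region, and the sequences below show the 1 exception and the next nearest windows. RefSeq (GRCm38.p6, the assembly of mm10) gives 2014 promoter windows on chromosome 1, each from 250 bases before to 50 bases after a transcription start. Of these, 1 was overlapped by a region, against a background of 0.137% of windows over the autosomes with promoter sequences. It belongs to Mroh2a, a gene of the maestro heat-like repeat family, on the plus strand at chr1:88226770-88227069. The region at chr1:88226535-88226836 (score 71) covered the first 67 bases of the window, which are in capitals below. The next nearest windows were those of the long non-coding RNA gene Gm38687 (minus strand, chr1:132971639-132971938), 47 bp from a region of score 29, and of Sp110, which encodes a nuclear body protein of the Sp100 family (minus strand, chr1:85603842-85604141), 138 bp from a region of score 36. Neither of these holds a base of a region, so both are printed without capitals. Each sequence is RefSeq's, 5′ to 3′ on the strand of its gene.
Mroh2a: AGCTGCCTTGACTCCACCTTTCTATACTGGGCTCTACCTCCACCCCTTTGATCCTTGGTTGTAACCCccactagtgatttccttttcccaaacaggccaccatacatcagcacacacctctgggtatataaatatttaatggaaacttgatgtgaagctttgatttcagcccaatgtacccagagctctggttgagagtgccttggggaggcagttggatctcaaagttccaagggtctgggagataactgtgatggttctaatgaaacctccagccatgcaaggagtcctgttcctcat
Gm38687: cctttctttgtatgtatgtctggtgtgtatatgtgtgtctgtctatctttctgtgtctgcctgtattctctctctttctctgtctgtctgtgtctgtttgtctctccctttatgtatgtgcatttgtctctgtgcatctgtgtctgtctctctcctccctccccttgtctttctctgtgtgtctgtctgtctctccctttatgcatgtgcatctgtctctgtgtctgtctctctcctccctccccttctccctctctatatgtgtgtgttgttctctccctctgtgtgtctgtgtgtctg
Sp110: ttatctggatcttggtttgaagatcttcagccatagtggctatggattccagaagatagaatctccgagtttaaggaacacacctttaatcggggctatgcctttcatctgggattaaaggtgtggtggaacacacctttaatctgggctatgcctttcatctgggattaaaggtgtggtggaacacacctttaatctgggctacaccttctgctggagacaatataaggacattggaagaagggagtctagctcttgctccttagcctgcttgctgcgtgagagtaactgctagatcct

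None of the 3 windows held TGCACAC or its reverse complement GTGTGCA, and none held an unbroken CA repeat of 10 bases on either strand. Over all 32851 promoter windows, 4.40% held the first motif on either strand and 1.61% the second. The shares among the 2014 windows of chromosome 1 were 4.27% and 1.39%. The 3 windows had a G and C content of 47.3% (Mroh2a), 46.7% (Gm38687) and 45.3% (Sp110), against a median of 52% over chromosome 1. The sequences under the regions themselves were not used here, so these letters describe neighbouring promoters and not the sites that were precipitated.

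Chromosome 1 carried 2.54 regions per Mb (95% exact Poisson interval 2.32 to 2.78) over a span of 192 Mb. The other autosomes, leaving out chromosome 8 with its 3.65 per Mb, ran from 1.54 per Mb on chromosome 18 to 2.09 per Mb on chromosome 14, with a median of 1.79. Chromosome 1 thus stood at 1.42 times that median and above each of the 17. The upper bound of chromosome 14, at 2.36 per Mb, reached the lower bound of chromosome 1. At the median rate of the others 345 regions would lie on chromosome 1, so that 144 of the 489 stand over that number. The input library was not used here, so none of the rates is set against it.

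**Figure D1:**
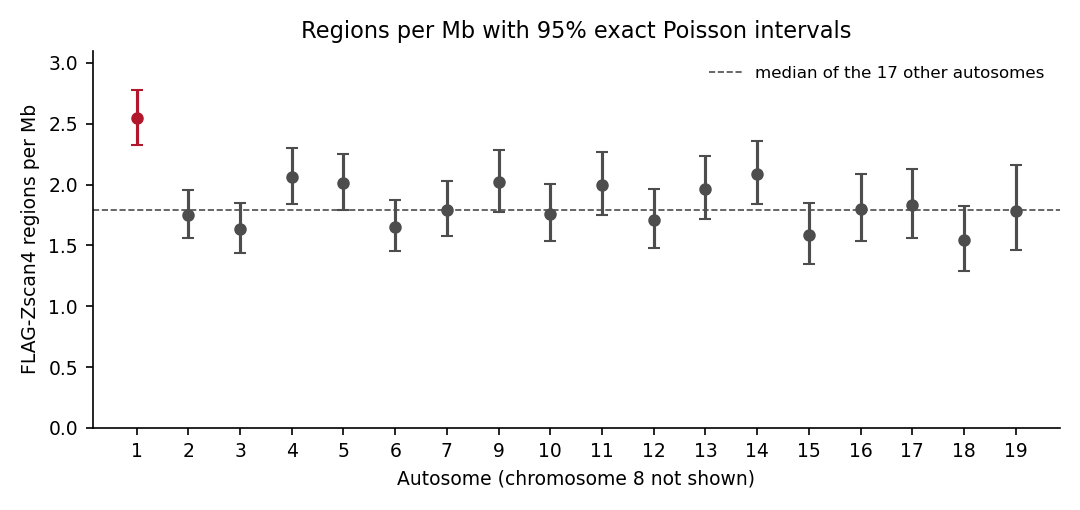
FLAG-Zscan4 regions per Mb (vertical axis) on each autosome except chromosome 8 (horizontal axis), with 95% exact Poisson intervals; the dashed line is the median of the 17 other autosomes. Chromosome 1, in red, stands at 2.54 per Mb, and the others lie between 1.54 and 2.09.

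The regions of chromosome 1 were short and of middling score. Their median width was 291 bp (interquartile range 242 to 416 bp), against a median of 311 bp over the other autosomes, of which 16 had wider regions and only chromosome 19 narrower ones. In all they covered 189 kb. The score is the authors' own value per region, on a scale not given in the sources used here, and serves only to rank regions within the list. On chromosome 1 it ran from 10 to 1543 with a median of 34, and the medians of the other autosomes lay between 28.5 and 35. Regions scoring at least 100 numbered 42 (8.59%, 95% Wilson interval 6.42 to 11.4%), against 10.1% over the other autosomes together.

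The surplus of chromosome 1 was not shared evenly by scores and widths. When the list was divided at its quartiles of score, regions scoring 33 to 54 stood at 0.801 per Mb on chromosome 1 and 0.451 per Mb over the other autosomes, a ratio of 1.78. The ratio was 1.30 for scores of 10 to 22, 1.30 for 23 to 32, and 1.20 for 55 and above. Among those highest scores the interval of chromosome 1 (0.433 to 0.644 per Mb) held most of the interval of the others (0.414 to 0.472 per Mb). By width, the ratio fell with each step: 1.64 for regions of 219 to 247 bp, 1.51 for 248 to 309 bp, 1.35 for 310 to 478 bp, and 1.07 for those of 479 bp or more. The widest regions, at 0.489 per Mb on chromosome 1 and 0.456 per Mb elsewhere, thus showed a difference within counting error.

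Along the chromosome the regions lay in alternating rich and poor stretches and not in a single block. Each of the 18 full windows of 10 Mb held between 7 and 41 regions, with a median of 26, against a median of 16.5 in 190 such windows of the other autosomes. Above that 16.5 stood 14 of the 18 windows (77.8%), against 50.0% of the other windows by definition. The higher rate of the chromosome by itself raises this share. The richest were 30 to 40 Mb with 41 regions, 150 to 160 Mb with 40, and 80 to 90 Mb and 180 to 190 Mb with 38 each. The poorest were 140 to 150 Mb with 7, 110 to 120 Mb with 11, 20 to 30 Mb with 13 and 40 to 50 Mb with 14. A rich and a poor window stood side by side at 10 to 30 Mb, at 30 to 50 Mb and at 130 to 150 Mb. With the 102 regions of score 55 or above alone, 50.0% of the windows stood above the median window of the others.

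Cut into 4 parts of equal length, chromosome 1 held 113, 130, 87 and 159 regions from the centromere side to the distal end. Over the corresponding parts of the other autosomes the ratios of the rates were 1.25, 1.66, 1.05 and 1.59. In the third part the rate of chromosome 1, 1.81 per Mb (95% exact Poisson interval 1.45 to 2.23), stood close to the 1.72 per Mb of the others. The fourth part, at 3.31 per Mb (2.81 to 3.87), was the densest. The assembled start of the chromosome up to 10 Mb held 12 regions (1.74 per Mb) and the stretch from 190 Mb to the end 15 (2.83 per Mb).

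**Figure D2:**
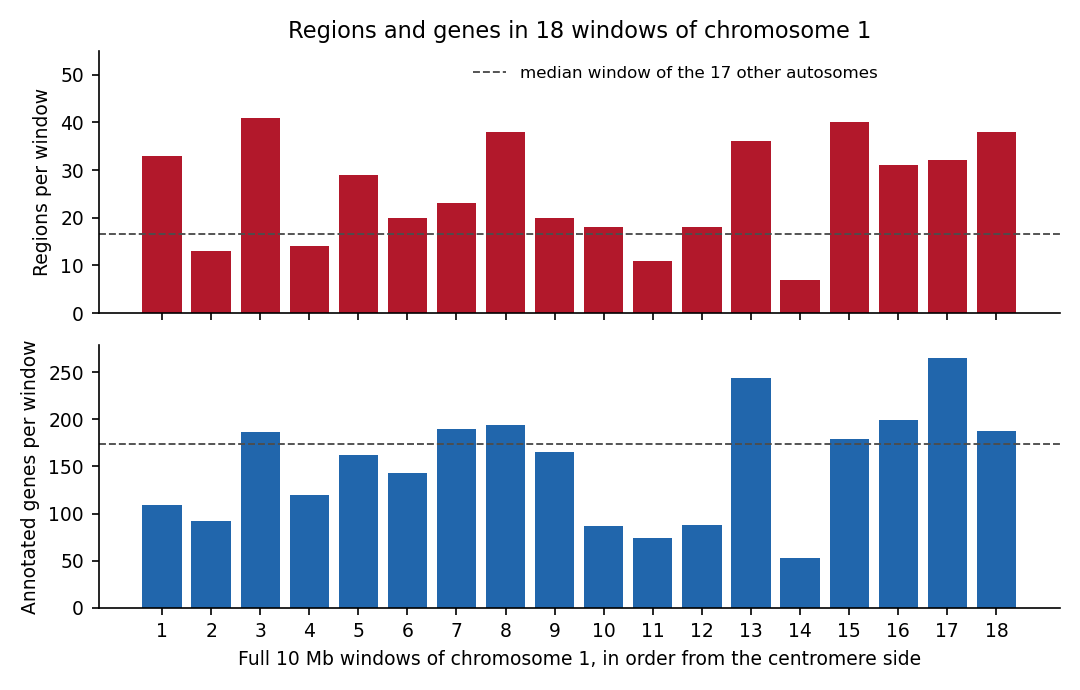
Number of FLAG-Zscan4 regions (upper panel) and of annotated genes (lower panel) in the 18 full 10 Mb windows of chromosome 1, in order from the centromere side; each dashed line is the median window of the 17 other autosomes (16.5 regions, 174 genes). The tallest bars hold 41 and 40 regions and the lowest 7, and the window with 7 regions also has the fewest genes, 53.

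The alternation went with the number of genes. Over the 18 windows, Spearman's rho between regions and annotated genes was 0.74, and with protein-coding genes alone it was 0.68. The 190 windows of the other autosomes gave 0.54 and 0.51. These are descriptions over windows of the same library, so the points are not independent. Within single other chromosomes the coefficient ran up to 0.80 on chromosome 2 and down to -0.82 over the 5 windows of chromosome 19, and 2 of the 17 stood above chromosome 1. In 1 Mb windows it was 0.57 on chromosome 1, above each of the 17 others (0.21 to 0.53). A coefficient over sparse counts can rise with the rate of regions, for which chromosome 1 was chosen, and this was not tested. The window from 140 to 150 Mb joined 7 regions to 53 genes, and that from 10 to 20 Mb stood apart with 33 regions and only 109 genes.

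The surplus was smallest where genes were fewest. In 1 Mb windows with 0 to 9 genes, chromosome 1 had 1.06 regions per Mb against 0.811 on the other autosomes, a ratio of 1.31. With 10 to 16 genes it had 2.82 against 1.61 (ratio 1.75), with 17 to 27 genes 3.39 against 2.31 (ratio 1.47), and with 28 or more 4.43 against 2.72 (ratio 1.63). Chromosome 1 is poor in genes, with 15.2 per Mb against a median of 18.98 over the others, and 16 of the 17 had more. Its higher rate of regions therefore stood beside a lower density of genes, while within the chromosome regions followed genes.

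**Figure D3:**
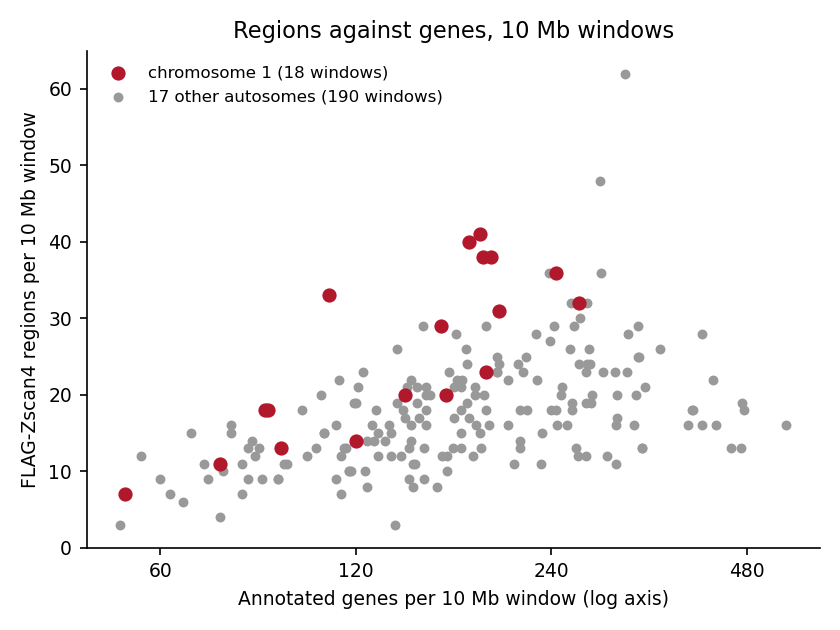
Regions (vertical axis) against annotated genes (horizontal axis, log scale) in full 10 Mb windows, with chromosome 1 in red (18 windows) and the 17 other autosomes in grey (190 windows). The window with 33 regions and 109 genes and those with 38 to 41 regions lie above the grey windows of like gene number, while the window with 14 regions lies among them.

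Of 191 windows of 1 Mb, 39 held no region (20.4%, 95% Wilson interval 15.3 to 26.7%), less than the share on each of the 17 other autosomes (21.1 to 31.0%). At the other end, 12 windows (6.28%) held 7 or more regions, against a background of 2.14%, and together they took in 103 regions. The fullest, picked by that number, were 85 to 86 Mb and 153 to 154 Mb with 11 each. The first takes in the Sp100 gene cluster, whose proteins sit in nuclear bodies and take part in interferon responses. Of its 11 regions 7 lay in gene bodies, a place that held 56.9% of all chromosome 1 regions. Among the 7, 1 was in Gm38510 and 1, of score 116, in Gm7592. There Sp140 held 3 regions in its body (scores 41, 36 and 18), Sp110 2 and Sp100 1 (score 49), and Sp110 and Sp140 overlap and share regions. How reads that match more than 1 place in this cluster were placed is not stated. The second window held 4 regions in Nmnat2, 2 in Npl (a sialic acid lyase gene) and 1 in the laminin gene Lamc1. Both windows had modest scores, with medians of 41 and 23 and maxima of 116 and 53. No window of chromosome 1 reached the 23 regions of the fullest window on chromosome 4. A higher rate of regions by itself lowers the share of empty windows and raises the share of full ones. Chromosome 1 was chosen for its rate, and whether its windows differ beyond what that rate gives was not tested.

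At 10 kb, neighbours were about as frequent as elsewhere. Another midpoint within that distance was found for 70 regions (14.3%, 95% Wilson interval 11.5 to 17.7%), against 12.3% over the other autosomes, and 6 of the 17 had a larger share. The background over all nuclear chromosomes, with chromosomes 1 and 8 included, was 14.6%. The 70 regions formed 27 pairs, 4 groups of 3 and 1 group of 4, and the other 419 stood alone. The group of 4 lay within 18.5 kb of Ccdc93. The groups of 3 lay in 4930444P10Rik, at the intelectin gene Itln1, in Cd244a and at the long non-coding RNA gene Gm39592. Within 100 kb, 56.6% of the regions had a neighbour (52.2 to 61.0%), against 44.9% on the other autosomes. Such a share rises with the rate of regions, for which chromosome 1 was chosen, and clustering beyond that rate was not tested. Among the 256 regions scoring 33 or more taken alone, the share at 10 kb was 6.64%, against 8.28%, and thinning a list lowers such a share whatever the score.

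Gene bodies held 278 of the 489 midpoints (56.9%, 95% Wilson interval 52.4 to 61.2%). The 17 other autosomes together had 52.5% (50.9 to 54.1%), and the intervals overlapped. The background over the 19 autosomes, chromosome 1 included, was 53.0%. Genes cover slightly less of chromosome 1 (47.6%) than of most others (median 49.1%). Per Mb of gene body there were 3.04 regions (95% exact Poisson interval 2.69 to 3.42) on chromosome 1, more than on any of the 17 other autosomes (1.44 to 2.59, median 1.94). Per Mb outside genes there were 2.10 (1.82 to 2.40), also the largest value, though chromosome 9 came close with 2.05. The surplus over the median was thus 1.56-fold inside genes (1.38 to 1.76) and 1.28-fold outside (1.12 to 1.47). These intervals, which take the median as fixed, overlap. The ratio of both rates, 1.45, was exceeded by chromosome 14 with 1.61. From score 55 on, the ratio to the median of the others was 1.57 inside genes and 0.957 outside, the second with an interval of 0.693 to 1.29 that takes in both no surplus and the value for all scores. By quartile of score, the ratio outside genes followed no order (1.37, 1.06, 1.49 and 0.958 of the pooled rate of the others).

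By class of gene, 231 regions (47.2%) lay in a protein-coding gene. Another 42 (8.59%) lay in a long non-coding RNA gene only, 5 (1.02%) in a pseudogene only and none in a gene of another kind, which left 211 (43.1%) outside genes. Over the other autosomes together the shares were 42.6%, 7.69%, 1.68% and, outside genes, 47.5%. Per Mb of its own span, the protein-coding class had 2.98 regions on chromosome 1 and 1.90 elsewhere (ratio 1.57). The long non-coding class had 3.54 (95% exact Poisson interval 2.55 to 4.78) on chromosome 1 and 1.95 elsewhere (ratio 1.81). Pseudogenes had 2.60 (0.844 to 6.06) against 3.17, a difference within counting error. By score and gene body together, the largest ratio, picked after the values were seen, was 2.06 for regions of score 33 to 54 inside genes. They stood at 1.01 per Mb (0.810 to 1.23) on chromosome 1 and 0.488 per Mb (0.447 to 0.533) on the others. Inside genes the ratio was 1.24 for scores of 10 to 22, 1.53 for 23 to 32 and 1.47 for 55 and above. Scores of 33 to 54 also had the largest ratio outside genes (1.49). For scores of 10 to 22 the ratio was larger outside genes (1.37) than inside.

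**Figure D4:**
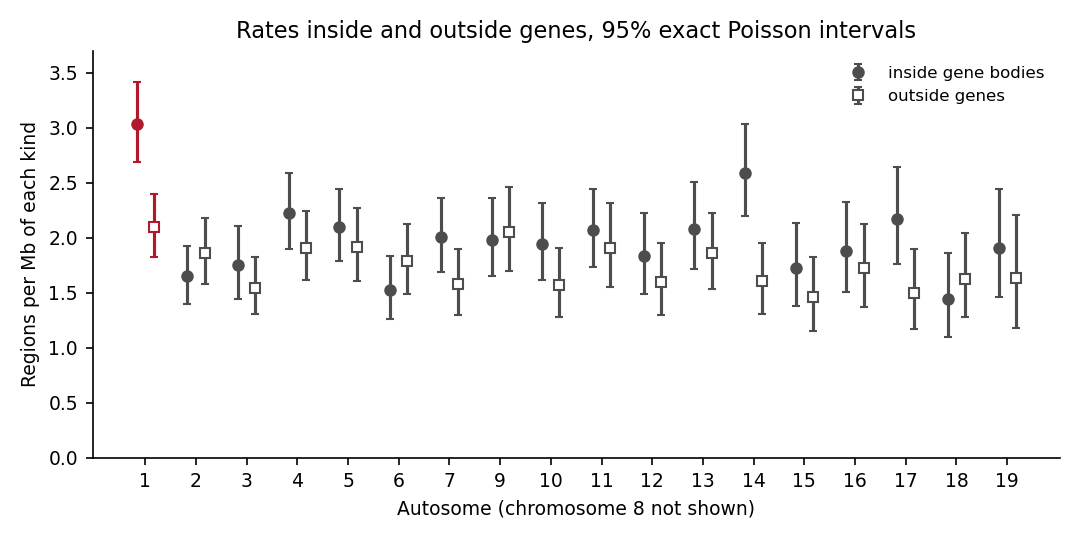
Regions per Mb of gene body (filled circles) and per Mb outside genes (open squares) on each autosome except chromosome 8, with 95% exact Poisson intervals. Chromosome 1, in red, has the highest filled circle (3.04) and an open square (2.10) whose interval overlaps those of all 17 others.

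Counted by gene, 173 of 1183 protein-coding genes of chromosome 1 had at least 1 region in the body (14.6%, 95% Wilson interval 12.7 to 16.8%), against a background of 7.39% over the 17 other autosomes, where the share ran from 4.74% on chromosome 7 to 10.1% on chromosome 14. Among regions of score 33 or more alone the share was 9.38%, against 3.82%. Genes of chromosome 1 are long, with a median span of 28.1 kb against 18.01 kb for the median of the others, and the share with a region rose with span. The comparison was therefore made by span. Up to 10 kb, 3 of 269 genes had a region (1.12%), against 0.765%, and the intervals overlapped. From 10 to 30 kb the share was 6.65% against 3.85%, from 30 to 100 kb 17.2% against 12.1%, and above 100 kb 41.8% (35.2 to 48.7%) against 28.8% (26.9 to 30.8%). Within each class of span from 10 kb on, the intervals did not overlap, though narrowly so below 100 kb. There the lower bounds of chromosome 1 were 4.47% and 13.7%, and the upper bounds of the others 4.40% and 13.1%. These shares also rise with the rate of regions, for which chromosome 1 was chosen.

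**Figure D5:**
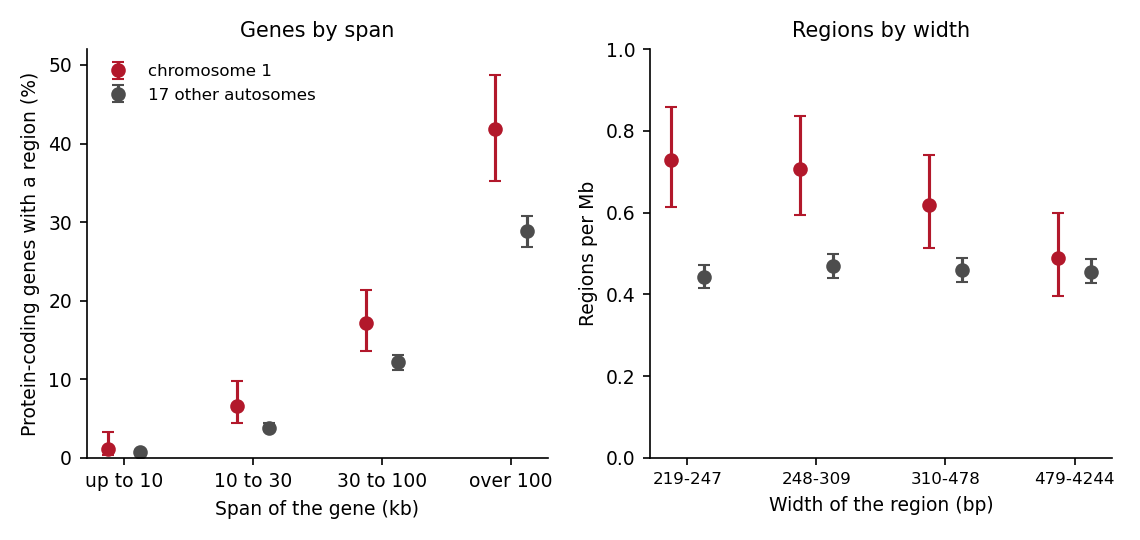
Left, percent of protein-coding genes with a region in the body by span of the gene (kb), with 95% Wilson intervals; right, regions per Mb by width of the region (bp), with 95% exact Poisson intervals. Chromosome 1 is red and the 17 other autosomes together are grey; red lies above grey in every class, reaching 41.8% for genes over 100 kb, and the gap closes for the widest regions.

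Of the 173 genes, 129 had 1 region, 28 had 2, 12 had 3 and 4 had 4, and no gene had more. The genes with 4 were picked by that number. Ccdc93, a subunit of the complex that recycles membrane proteins from endosomes, held its 4 over 75.4 kb (scores 50, 31, 28 and 18). Nmnat2, the NAD-synthesising enzyme that sustains axons, held 4 over 164 kb, none above a score of 23. Ankrd44, a regulatory subunit of protein phosphatase 6, held 4 over 284 kb with scores of 23 to 38. Smyd3, a lysine methyltransferase gene, held 4 over 566 kb with scores of 13 to 39, where the rate of the chromosome alone would give 1.44. Of the 12 genes with 3, the 6 of highest summed score are described here. Of these, 2 are short, with 11.3 regions per 100 kb in Cd244a, which encodes the natural killer cell receptor 2B4 (scores 77, 53 and 37), and 11.0 in 4930444P10Rik (111, 66 and 42). The other 4 were Dnah14, an axonemal dynein heavy chain gene (scores 351, 49 and 23), the voltage-gated potassium channel gene Kcnh1 (150, 29 and 23), Rabgap1l, which encodes a Rab GTPase-activating protein (97, 58 and 23), and Agap1, which encodes an Arf GTPase-activating protein (51, 38 and 35). Hecw2, Ncoa2, Gigyf2, Spata17, Sp140 and Clasp1 also held 3 each, none above a score of 49. In 4930444P10Rik the 3 regions follow each other within 3.96 kb, and in Agap1 regions of scores 51 and 38 stand next to each other.

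The highest scores of chromosome 1 fell off steeply after the first. The top region, of score 1543 and 1667 bp wide, ranked number 18 in the whole list and lay in Asic4, which encodes a member of the acid-sensing ion channels (chr1:75460562-75462228), with a second region of score 18 in the same gene. The next was a narrow region of 233 bp and score 499 in Cntnap5b, a neurexin-related cell adhesion gene (chr1:100180124-100180356). It was followed by a region of score 376 at 1.39 kb from Ly96, which encodes the MD-2 partner of the endotoxin receptor Tlr4 (chr1:16710576-16711409). Dennd1b, a Rab activator gene, held one of 352 (chr1:138979271-138980293), whose midpoint also lay 536 bp from the end of the long non-coding RNA gene 4930596I21Rik, and Dnah14 one of 351. The other 5 of the first 10 lay in the ubiquitin-conjugating enzyme gene Ube2w (score 251), the ribosomal RNA processing gene Rrp15 (227) and the RNA-binding protein gene Khdrbs2 (210), and outside genes at 78.5 kb from Gm39589 (296) and 35.0 kb from Gm46177 (243). Of these 10, picked by score, 7 lay in protein-coding genes, against 47.2% of all chromosome 1 regions.

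Gene ends were a minor place. Midpoints at most 1 kb from a gene's end, whichever end it was, belonged to 28 regions (5.73%, 95% Wilson interval 3.99 to 8.15%). The 17 other autosomes together had 7.14%, and 12 of them had a larger share than chromosome 1. The background over the 19 autosomes, chromosome 1 included, was 7.25%. Within 1 kb of an annotated transcription start lay 9 regions (1.84%, 0.971 to 3.46%), against 2.29% over the 16 other autosomes with promoter sequences. By the nearest end, 15 of the 28 were at long non-coding RNA genes, 11 at protein-coding genes and 2 at pseudogenes. The 2930 genes of chromosome 1 include 828 long non-coding RNA genes, 1183 protein-coding genes and 653 pseudogenes. The same split was not made for the other autosomes, so no preference for a class is read from these counts. The highest after 4930596I21Rik were at Gm7592 (score 116), Gm17767 (102), the pseudogene Gm10925 (86) and Itln1 (86). Next came Mroh2a (71) and the cytokine gene Il20 (71), both at a start, then A530032D15Rik (60), 4930439A04Rik (53) and Gm34596 (43).

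Gene families that lie on chromosome 1 were examined next. A gene was counted if its body or the 10 kb on either side contained a region midpoint, which was so for 8.82% of all genes in the genome and for 14.6% of the genes of chromosome 1. Of 145 genes in 15 lists, 37 counted. In a list named for chromatin regulators, 6 of 15 had a region, all in the body. Among them were Ino80d, a subunit of the INO80 remodeller (scores 83 and 11), Xrcc5, the Ku80 protein of DNA end joining (57), the class IIa histone deacetylase gene Hdac4 (32 and 16), Smyd3, and Rnf2, the Polycomb ubiquitin ligase Ring1B (14). Parp1, Kdm5b, Bard1, Cenpf, Mcm3, Mcm6, Smyd2 and Suco were among those with none listed. Suco encodes a protein of the endoplasmic reticulum and is no chromatin regulator.

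Of 6 genes of pluripotency and the early embryo, 2 counted. Nr5a2, a nuclear receptor of pluripotent cells, held a region of score 47 at chr1:136918025-136918359, and Sp110, which was also in the Sp100 list, had 3 within reach, the highest at 36. Prdm14, Tfcp2l1, Cxcr4 and Slc30a1 had none within 10 kb. All 3 genes of the Sp100 list (Sp100, Sp110 and Sp140) counted, with the limit on the placing of reads given above for that cluster.

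Among immune gene clusters, 3 of 6 interleukin 1 receptor genes counted. The decoy receptor gene Il1r2 held a region of score 58, and Il1rl1, the receptor of interleukin 33, held one of score 35 that also lies within 10 kb of Il18r1. In the SLAM family of lymphocyte receptors 3 of 9 counted, namely Cd244a, Cd48 (score 56, beside the gene) and Slamf9 (50). In the interferon-inducible Ifi200 family it was 2 of 14, Ifi202b (42) and Ifi203 (35 and 23). The Ifi200 genes are close copies of each other, and how reads that match several of them were placed is not stated.

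Of 15 genes taken as ion channels by their symbols, 5 counted. They were Asic4, Kcnh1, the cold sensor gene Trpm8 (23), the calcium channel gene Cacna1e (23) and Trp53bp2 (23), which shares only the first letters of its symbol and encodes a p53-binding protein. All 9 genes of the Ugt1a cluster, which glucuronidate bilirubin and drugs, counted through 1 shared region, that of score 71 at Mroh2a, since they end at nearly the same place. A second region of score 49 lay in the overlapping bodies of 5 of them and not within 10 kb of Ugt1a1, Ugt1a2, Ugt1a5 or Ugt1a6a. Of the gamma crystallin genes of the lens 3 of 6 counted, by regions of score 18 and 23 outside their bodies. Cntnap5b of the Cntnap5 list and Brinp2 of the Brinp list (29) also counted.

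In 4 lists no gene had a region within 10 kb. These were the 34 olfactory receptor genes and pseudogenes, the 12 Serpinb protease inhibitor genes, 8 listed Rgs genes, which encode regulators of G protein signalling, and the 5 genes at the complement factor H locus. The Rgs list does not take in Rgs7, whose body contained 1 region (score 47), or Rgs20, with a region of score 159 at 2.21 kb, both looked up after the values were seen. Only regions that passed the authors' cutoff are listed, so an unlisted gene is not shown to be free of FLAG-Zscan4. Olfactory receptor and crystallin genes are short, and their span was not matched here.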

How the data were processed

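Regions came from 1 anti-FLAG immunoprecipitation, and 1 whole-number score per region was deposited by the authors, on an unstated scale. Region starts and ends are other deposited values, in bp. Tools named in the submitters' processing notes are MACS2, Bowtie2, deepTools and cutadapt, with mm10 as the build and no version or threshold stated. Region names on chromosome 1 run to 490, and 1 number has no region in the list used here.

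Midpoints were set against 49640 genes of RefSeq GRCm38.p6 (2930 on chromosome 1), leaving out autosomal and X-linked genes that start below 3 Mb. The gene table has no strand, so either gene end was used; transcription starts came from the RefSeq promoter table. A chromosome's span runs from its first to its last annotated or listed position, gaps included. Intervals at 95% are exact Poisson for rates and Wilson for shares. The variance of the counts in 1 Mb windows was 2.17 times their mean on chromosome 1 (median 1.73 on the 17 others). Intervals that take regions as independent are therefore too narrow. Python 3.11.15, pandas 2.3.3 and scipy 1.17.1 were used, and counting was tested on simulated positions.

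Named genes were those at or nearest to the 10 highest scores, the 10 protein-coding genes with most regions (ties by summed score), those at the 10 highest regions within 1 kb of a gene end, and list members with a region; a few genes are not reported here. Members, lists and comparisons were chosen with earlier results of these data known. No tests were run. Alternatives were the regions at or above the median or upper quartile of score, merging within 1 kb, leaving out 1 Mb windows with 10 or more regions, and other distances, windows, gene classes and reference autosomes.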

Additional observations from a re-analysis of the deposited data

How the results depend on the processing

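Of 39 values recomputed under alternatives for 8 results, 24 stayed within the 95% interval of the value reported. With the 256 regions of chromosome 1 at or above the median score, the rate over the median of the other autosomes was 1.56, the rate inside genes over theirs 1.99, the share with a neighbour 6.64% (8.28% on the other autosomes) and the share of protein-coding genes with a region 9.38% (3.82%). With the 102 at or above the upper quartile these were 1.28 for the rate, 3.92% for neighbours (7.27% on the other autosomes) and 3.63% of genes (1.87%), the ratio outside genes was 0.957, and 50.0% of 10 Mb windows stood above the median window. The shares of neighbours and of genes drop because fewer regions remain. Merging within 1 kb gave 11.1% with a neighbour, against 9.31%, and counting within 100 kb gave 56.6%, against 44.9%. The share with a neighbour also rises with the rate of regions, for which chromosome 1 was chosen. With protein-coding genes only, 47.2% lay in bodies, against 42.6%, and 2.25% at ends, against 2.65%. Within 5 kb of an end lay 28.0%, against 29.3%, and 20.8% of genes had a region in the body or within 10 kb, against 11.4%. Both ratios inside and outside genes, and their alternatives, were chosen after seeing the data. No paired analysis was possible because the list comes from 1 library. Depth is unknown, so what weaker regions were missed cannot be stated.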

Other observations

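The longest stretches of chromosome 1 without a listed region were described after the values were seen. The longest ran for 4.02 Mb from 79792444 to 83811247 and held 43 genes, 17 of them protein-coding, among them the insulin signalling gene Irs1, the ubiquitin ligase scaffold gene Cul3 and the basement membrane collagen genes Col4a3 and Col4a4. Its 10.7 genes per Mb were below the 15.2 of the whole chromosome. The second, of 3.78 Mb from 47629571 to 51413799, held 20 genes, of which Tmeff2 and Cavin2 code for proteins. The third, of 3.76 Mb from 143972375 to 147728993, held Rgs1, Rgs2, Rgs13, Rgs18, Rgs21 and Brinp3 as its 6 protein-coding genes, so that 5 of the 8 listed Rgs genes without a region lie in 1 stretch and are not separate observations. The fourth, of 3.604 Mb, held the cadherin genes Cdh7 and Cdh19 and Dsel. The longest gap on the other autosomes ran from 2.56 Mb on chromosome 19 to 7.56 Mb on chromosome 14, and 14 of the 17 had a longer one than chromosome 1. Gaps also shorten as the rate of regions rises, and chromosome 1 was chosen for its rate.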
